A study of Mus musculus with 6 samples.

Results

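Transcripts of 8 genes of the interleukin-1 (IL-1) system were followed in the CD45+ cells of mouse tumours: the ligands Il1a, Il1b and Il18, the antagonist Il1rn, and the receptor chains Il1r1, Il1rap, Il1r2 and Il1rl1. The genes were taken from a list of symbols, and all 8 were found among the 32285 genes of the deposited matrices. The tumours were grown from MC38, a mouse colon adenocarcinoma line, injected under the skin, and live CD45+ (haematopoietic) cells were sorted from them at day 25. Both groups received wild-type MC38 cells. The 3 control samples (ctr) came from mice whose regulatory T cells (Treg) carry wild-type Ctcf, the gene of the chromatin-architecture protein CTCF. The 3 knockout samples (cko) came from mice with a tamoxifen-inducible Ctcf knockout in Treg. The Cre driver, the deleted exons and the tamoxifen schedule are not given in the sources used here, nor is whether control mice received tamoxifen. The labels call the 3 samples of each group biological replicates, and p-values below measure the spread between these samples.

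IL-1α and IL-1β are made mainly by activated myeloid cells and act through one receptor, IL-1R1, which needs the shared chain IL-1RAP to recruit MyD88 and to activate NF-kB. The pathway is held back at several points: the receptor antagonist IL-1Ra, product of Il1rn, occupies IL-1R1 without signalling, and the decoy receptor IL-1R2 binds IL-1 but lacks a signalling domain. IL-1β and IL-18 are made as inactive precursors that caspase-1 cleaves in the inflammasome, so that a transcript level does not measure the active cytokine. IL-33 signals through ST2, product of Il1rl1, which is known on tissue Treg, mast cells and group 2 innate lymphoid cells and also pairs with IL-1RAP.

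On GRCm38, the genome build of the deposited matrices, the members lie in 4 places. The receptor genes Il1r2 (chr1:40074079-40125231, plus strand), Il1r1 (chr1:40225080-40317257, plus strand) and Il1rl1 (chr1:40429570-40465415, plus strand) share a stretch of chromosome 1 with Il1rl2, Il18r1 and Il18rap. On chromosome 2, Il1a (chr2:129299610-129309972) and Il1b (chr2:129364570-129371139) are neighbours on the minus strand, and Il1rn lies apart from them (chr2:24336853-24351494, plus strand). Il18 (chr9:50554827-50581840) and Il1rap (chr16:26581704-26730117) are both on the plus strand. All 8 are annotated as protein coding.

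The promoter stretches of Il1a, Il1b and Il1rn are shown because these 3 genes had their highest levels in the same myeloid classes. The first pair are the 150 bases before the start site of Il1a (chr2:129309973-129310122, minus strand) and of Il1b (chr2:129371140-129371289, minus strand), and the last is 30 bases before one start site of Il1rn (chr2:24345310-24345339, plus strand). They are RefSeq sequence of GRCm38.p6, written 5′ to 3′. Capitals mark letters that match TATAAA, the ETS and PU.1 core GAGGAA or the NF-kB motif.
Il1a: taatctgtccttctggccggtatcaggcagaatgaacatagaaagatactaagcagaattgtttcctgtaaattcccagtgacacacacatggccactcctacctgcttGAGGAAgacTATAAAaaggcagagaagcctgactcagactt
Il1b: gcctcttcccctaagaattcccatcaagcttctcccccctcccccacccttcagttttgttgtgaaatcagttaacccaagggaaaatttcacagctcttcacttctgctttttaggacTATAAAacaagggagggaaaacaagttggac
Il1rn: ggaaatatgaGGGTTTTTCCgcttctgaca
All motifs were searched on both strands in windows from 250 bases before to 50 bases after each start site, 12 windows for the 8 members and 32851 windows in the whole RefSeq table. TATAAA began 32 bases before the start site of Il1a and 31 bases before that of Il1b, and 13.6% of all windows hold it. GAGGAA stood 41 bases before the Il1a start site, in 28.3% of all windows. The NF-kB motif was found among the members at Il1rn, 51 bases before this start site (the same letters lie 30 bases after another Il1rn start site), and 1.63% of all windows hold it. The CTCF core motif, present in 1.15% of all windows, matched none of the 12 windows of the members. These matches describe letters in a window, not bound sites.

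The 6 matrices held 41679 cell barcodes with 45322797 to 55515267 unique molecules (UMIs) per sample, of which 37221 cells were kept, 18453 ctr and 18768 cko. Cells were put into classes by counting fixed marker genes per cell, and no member is a marker. The gates held 6343 ctr and 4042 cko monocytes and macrophages, which carried a median of 8 of 12 macrophage markers, 1 neutrophil marker and 0 T cell markers. They also held 751 and 380 conventional dendritic cells (cDC, a median of 5 of 12 cDC and 3 of 12 macrophage markers), 1513 and 758 Treg, 536 and 986 conventional CD4 T cells, and 3649 and 5912 CD8 T cells. Neutrophils were few (62 ctr, of which 4 in ctr replicate 2, and 233 cko), as were γδ T cells (31 ctr, of which 2 in ctr replicate 2, and 367 cko). The gates have soft edges: 371 ctr and 344 cko cells carried 3 of the 14 myeloid markers counted and lay just outside the monocyte and macrophage gate, against 498 and 477 with 4, just inside it. Cko replicates 1 and 3 shared 197 T cell clonotypes (of 616 and 711), whereas every other pair of samples shared 0 to 3. Whether these 2 samples are independent was not tested, and the members' genotype calls in whole classes are also given with these 2 samples added together as 1. Between 33 and 71 cell barcodes were shared by any pair of libraries. Ctcf in Treg measured 80.1, 86.1 and 99.2 CPM (UMI counts scaled to a total of 1e+06) in ctr and 58.8, 83.6 and 67.9 CPM in cko, a log2 difference of −0.35 (SE 0.159, adjusted p = 0.388, edgeR's quasi-likelihood test with Benjamini-Hochberg adjustment). Its 5′ reads can lie outside the deleted part, so the level is a weak check of the labels.

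Levels below are CPM within a class, that is, the gene's counts as a share of all UMIs of the class in a sample. Unless stated otherwise, mean ± SD over samples uses samples with at least 20 cells of the class, which left 4 samples for neutrophils and the 3 cko samples for γδ T cells. The 8 genes split into a myeloid set (Il1a, Il1b, Il1rn, Il18), receptor genes centred on a lymphoid class (Il1r1, Il1rl1) and 2 receptor genes led by neutrophils (Il1r2, Il1rap).

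Il1b, the gene of the main secreted IL-1 in inflammation, was by far the most abundant member, with 640360 of its UMIs in kept cells. It measured 12312 CPM in neutrophils of ctr replicate 1 and 18389, 11747 and 20438 CPM in those of the 3 cko samples. Monocytes and macrophages held 6679.7 ± 1892 CPM (n = 6) and cDC 2908 ± 1364 CPM (n = 6). Neutrophils lay above monocytes and macrophages in 4 of 4 samples, and those above cDC in 6 of 6. Between neutrophils and monocytes and macrophages of the same samples the log2 difference was 1.44 (SE 0.243, adjusted p = 3.18e-08, edgeR's quasi-likelihood test with Benjamini-Hochberg adjustment). Monocytes and macrophages exceeded cDC by 1.35 on the log2 scale (SE 0.113, edgeR adjusted p = 5.87e-06). Lymphocytes held far less: 11.2 to 21.5 CPM in NK cells, 15.0045 to 31.4 CPM in CD8 T cells, 17.8 to 34.0 CPM in Treg, 18.2 to 47.3 CPM in γδ T cells of cko and 27.6 to 107 CPM in conventional CD4 T cells. Whether RNA released by other cells is part of these values was not tested.

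Il1a, whose product is active without cleavage and can remain on the cell, followed the same order at lower levels. Neutrophils measured 836 CPM in ctr replicate 1 and 1986, 1541 and 1266 CPM in cko. Monocytes and macrophages held 122 ± 64.2 CPM and cDC 5.46 ± 4.25 CPM (n = 6 each). Neutrophils exceeded monocytes and macrophages by 3.58 on the log2 scale (SE 0.271, edgeR adjusted p = 1.44e-37), and monocytes and macrophages exceeded cDC by 4.34 (SE 0.515, edgeR adjusted p = 0.000553). Treg and CD8 T cells held at most 2.21 CPM in any sample.

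Il1rn, the receptor antagonist, was strongest where the ligands were. Its level was 2297 CPM in neutrophils of ctr replicate 1 and 4569.7, 3500.3 and 3976 CPM in those of cko, against 994 ± 385 CPM in monocytes and macrophages and 192 ± 179 CPM in cDC (n = 6 each). The difference of neutrophils from monocytes and macrophages was 2.01 on the log2 scale (SE 0.25, edgeR adjusted p = 2.02e-14), and that of monocytes and macrophages from cDC was 3.08 (SE 0.584, edgeR adjusted p = 0.00544). NK cells held 0.392 to 2.69 CPM.

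Il18, whose product drives interferon-γ release by T and NK cells, was mainly a transcript of monocytes and macrophages. These measured 32.4, 37.4 and 33.1 CPM in ctr and 36.9, 29.96 and 40.1 CPM in cko. Neutrophils held 30.8 ± 13.004 CPM (n = 4) from 3 to 11 counts per sample, and the 2 classes did not differ past the threshold (log2 difference 0.16, edgeR adjusted p = 0.763). cDC held 4.31 ± 1.71 CPM, and monocytes and macrophages exceeded them by 2.96 on the log2 scale (SE 0.172, edgeR adjusted p = 3.45e-08).

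Il1r1, the signalling receptor for IL-1, was rare, with 510 UMIs in all kept cells. Its highest level was in gated γδ T cells: 91.5, 62.5 and 107 CPM in the 3 cko samples, from 53, 89 and 52 counts. The few ctr γδ T cells gave 3, 0 and 4 counts, which is 48.0, 0 and 54.5 CPM, and their exact 95% counting intervals reached 140.4, 298 and 139 CPM. No difference between ctr and cko γδ T cells could thus be detected at this depth. Conventional CD4 T cells followed with 4.75 ± 4.38 CPM (n = 6). Little or no Il1r1 was detected in the classes with the highest Il1a and Il1b transcript levels. Neutrophils gave 0 counts in every sample, and monocytes and macrophages 0.399 to 1.19 CPM. In neutrophils of cko replicate 2, the sample with the most neutrophil UMIs (332257), 0 counts allow up to 9.03 CPM (3 counts of the total). That limit lies above the mean of conventional CD4 T cells, so neutrophils cannot be ranked against them. In the 3 cko samples γδ T cells exceeded conventional CD4 and CD8 T cells by 7.82 on the log2 scale (SE 0.582, edgeR adjusted p = 0.000554). The γδ gate counted Trdc, Tcrg-C1, Tcrg-C2, Tcrg-C4, Trdv4, Cd163l1, Il17a and Blk, so these levels describe γδ T cells with such markers. Cells that no gate took held 31.9% of Il1r1 counts in ctr and 28.5% in cko (means of 3 samples). Monocytes and macrophages held 26.6% and 6.17%.

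Il1r2, the decoy receptor, was found in both myeloid and T cell classes. Neutrophils led with 4654 CPM in ctr replicate 1 and 3925, 2263 and 3689 CPM in cko, followed by cDC (667 ± 433 CPM), Treg (353 ± 145 CPM), conventional CD4 T cells (284 ± 156 CPM) and monocytes and macrophages (189 ± 64.8 CPM, n = 6 each). CD8 T cells held 35.0 ± 14.1 CPM and γδ T cells 11.6 ± 14.97 CPM. Neutrophils exceeded monocytes and macrophages by 4.38 on the log2 scale (SE 0.278, edgeR adjusted p = 1.94e-53). In contrast to the ligands and Il1rn, it was lower in monocytes and macrophages than in cDC, by −1.58 on the log2 scale (SE 0.212, edgeR adjusted p = 0.000478). Treg, conventional CD4 T cells and macrophages overlapped: Treg were above conventional CD4 T cells in 5 of 6 samples, with a log2 difference of 0.39 (SE 0.271, edgeR adjusted p = 0.388). The value passed without ctr replicate 2 (0.63, adjusted p = 0.00039) and turned to −0.84 (adjusted p = 0.00178) when the classes were taken from clusters instead of gates, so the order of these 2 classes depends on the cells counted. NK cells held at most 2.47 CPM, below every sample of Treg, conventional CD4 and CD8 T cells but within the range of γδ T cells (1.73 to 28.8 CPM in cko). In γδ T cells it was lower than in the other T cells by −3.13 on the log2 scale (SE 0.651), which did not pass (edgeR adjusted p = 0.0593) and did pass in each of 6 alternatives (−2.55 to −4.58).

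Il1rap, the chain shared by the IL-1 and IL-33 receptors, measured 241 CPM in neutrophils of ctr replicate 1 and 132, 84.3 and 210.1 CPM in those of cko, from 28 to 41 counts each. Every other class had a mean of 3.23 to 6.43 CPM. Among these, monocytes and macrophages exceeded cDC by 1.07 on the log2 scale (SE 0.216, edgeR adjusted p = 0.000972). Neutrophils exceeded monocytes and macrophages by 4.87 on the log2 scale (SE 0.316, edgeR adjusted p = 2.95e-51). Neutrophils thus held the coreceptor and the decoy, and no count of Il1r1.

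Il1rl1, which encodes the IL-33 receptor, was highest in Treg among the gated T cells. Treg measured 32.1, 21.4 and 24.9 CPM in ctr and 31.6, 13.2 and 25.6 CPM in cko, and conventional CD4 T cells 12.3, 5.01 and 6.22 CPM in ctr and 16.1, 9.12 and 10.6 CPM in cko. Treg were higher in 6 of 6 samples, by 1.19 on the log2 scale (SE 0.196, edgeR adjusted p = 0.000186). With classes from clusters the difference was 0.71 and did not pass (adjusted p = 0.0677). T cells that the gates could not assign to Treg, conventional CD4 or CD8 held means of 15.1 CPM in ctr and 15.6 CPM in cko. Among them, 741 ctr and 785 cko cells had 1 of the 4 Treg core markers and no CD8 marker, just outside the Treg gate. CD8 T cells held 0.824 to 2.13 CPM and NK cells 0 counts in all samples. Its ligand gene Il33 was at most 0.161 CPM in the mean of any class of these sorted cells.

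Read against all genes, the share of members called differs between these contrasts. Between neutrophils and monocytes and macrophages 5 of 6 members tested were higher and 0 lower, where 43.2% of all genes tested were called, 15% higher and 28.2% lower. Monocytes and macrophages against cDC called 6 of 6 members, 5 higher, where 61.9% of all genes were called, 31.9% higher and 30% lower. Treg against conventional CD4 T cells called 2 of 3 (Il1rl1 higher; Il1b lower, by −0.83, adjusted p = 0.0351), where 21.9% were called, 11.6% higher and 10.3% lower. γδ against other T cells called 1 of 7, where 20.1% were called, 9% higher and 11.1% lower. The plot of member levels by class shows each sample.

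**Figure D1:**
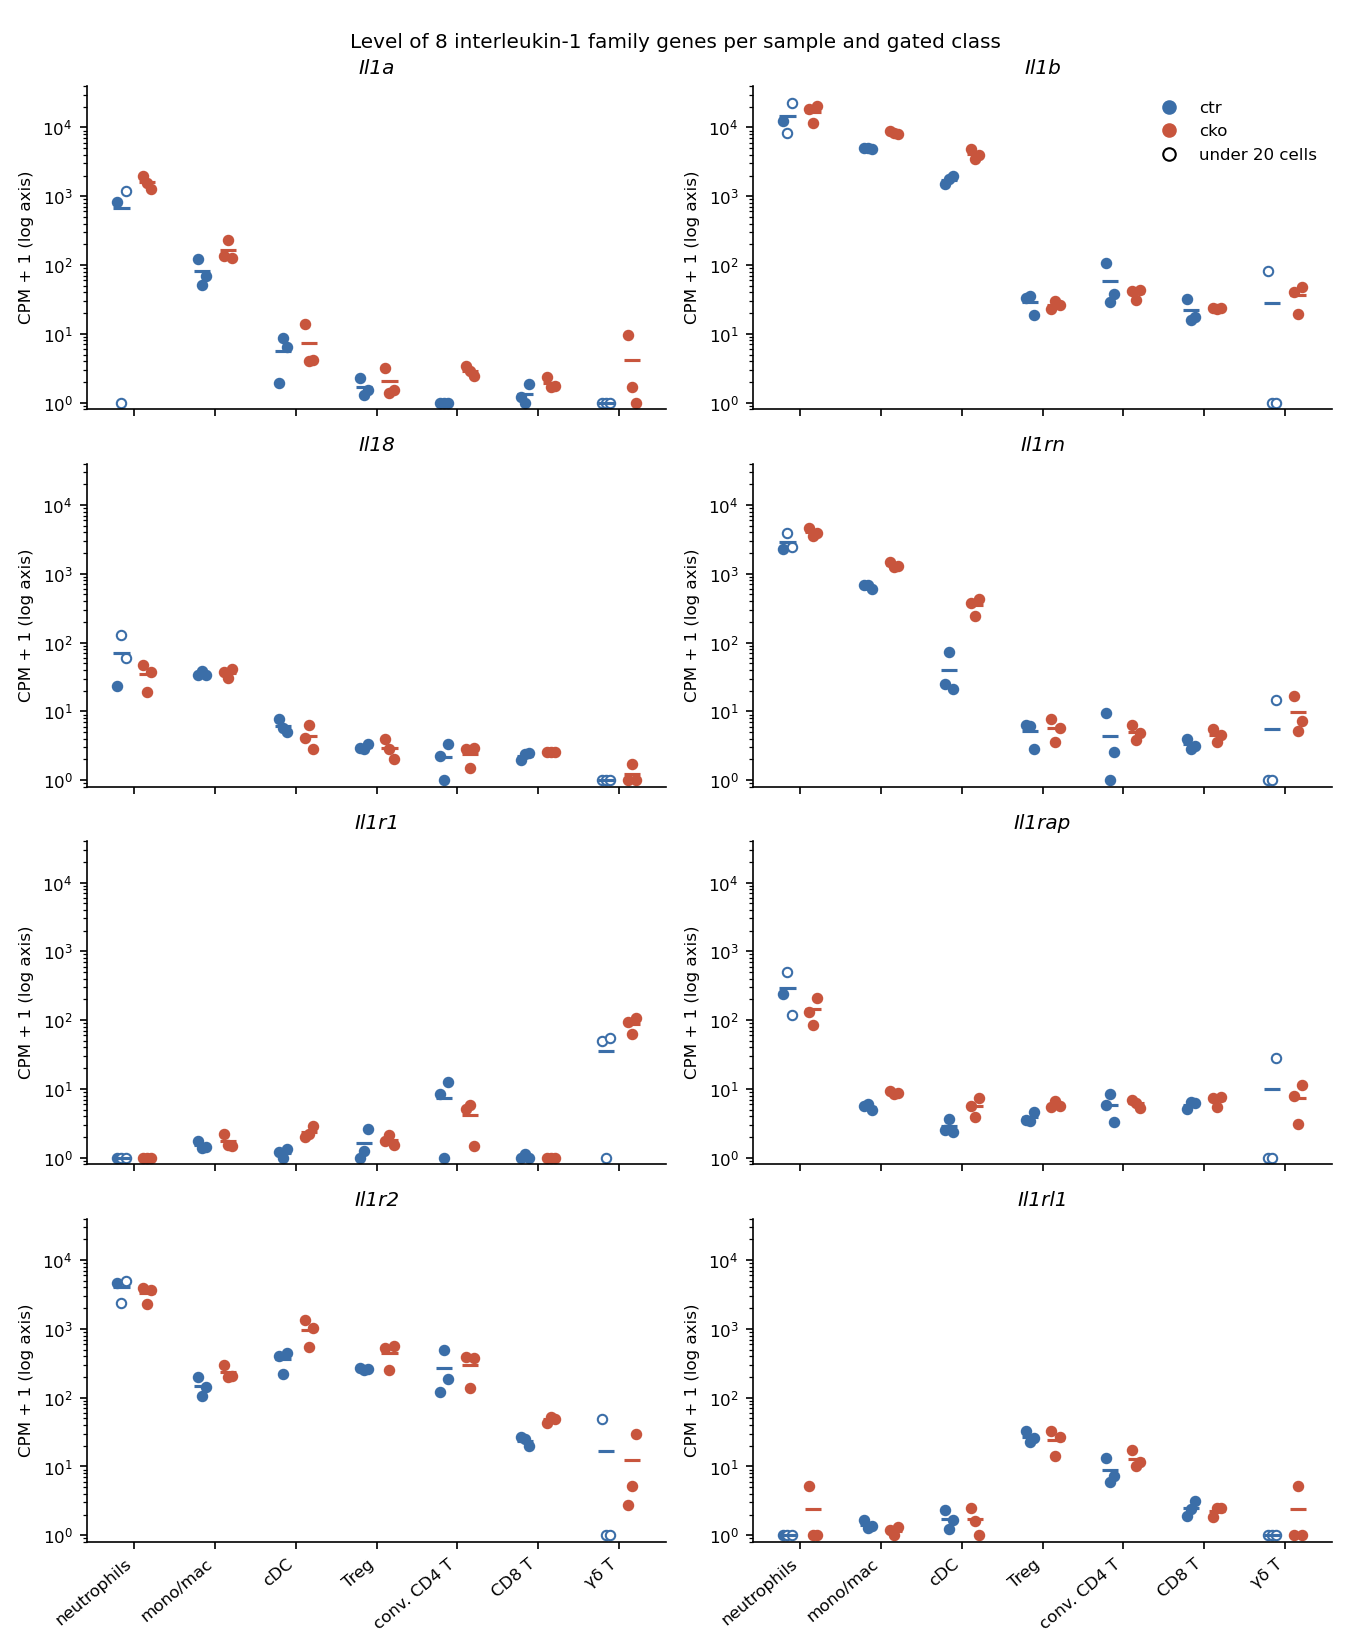
Level of each of the 8 members (CPM + 1, log axis) in 7 cell classes; each point is 1 sample (ctr or cko), open circles are samples with under 20 cells of the class, lines are means, and mono/mac stands for monocytes and macrophages. Il1a, Il1b, Il1rn, Il1r2 and Il1rap are highest in neutrophils, Il1r1 in γδ T cells and Il1rl1 in Treg.

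Within the monocyte and macrophage gate, Il1a, Il1b and Il1rn were higher in cells with Nos2 or Arg1, and Il18 was not. Cells with a UMI of Nos2, which makes nitric oxide, held 8906 ± 1674 CPM of Il1b against 6159.9 ± 1637 CPM in those without, higher in 6 of 6 samples. The corresponding levels of Il1a were 277 ± 129.7 and 80.0 ± 29.4 CPM, and those of Il1rn 1496 ± 271 and 885 ± 336 CPM, both higher in 6 of 6 samples. Cells with a UMI of Arg1, the arginine-degrading enzyme of tumour macrophages, also held more Il1b (7567 ± 1756 against 5508 ± 1865 CPM) and Il1a (172 ± 90.2 against 53.5 ± 26.2 CPM), each in 6 of 6 samples. Il18 was at 31.2 ± 4.67 CPM with Nos2 and 35.6 ± 4.46 CPM without, and at 34.4 ± 5.05 and 35.8 ± 4.82 CPM for Arg1, each higher with the marker in 2 of 6 samples. Il1r2 differed from the IL-1 ligands, with 153 ± 41.9 CPM in cells with Arg1 and 245 ± 108 CPM in those without, lower in 6 of 6 samples. Il18 was higher in cells with no C1q UMI (41.2 ± 5.05 CPM) than in C1q-positive cells (28.6 ± 5.61 CPM), in 6 of 6 samples. A cell with more UMIs is more likely to show a given marker, so these splits are given as descriptions without a test.

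In cko tumours the monocytes and macrophages held more of both an IL-1 ligand and its antagonist. Il1b measured 5001, 5032 and 4874 CPM in ctr and 8858, 8175 and 8138 CPM in cko (4969 ± 83.4 against 8391 ± 405 CPM, SD, n = 3 each). Il1rn measured 678, 679 and 592 CPM in ctr and 1465, 1255 and 1292 CPM in cko (649.9 ± 50.01 against 1338 ± 112 CPM). Il1rap measured 4.57, 4.97 and 3.97 CPM in ctr and 8.33, 7.36 and 7.85 CPM in cko. For all 3 genes every cko sample lay above every ctr sample, and the gaps were wider than the spread within either group. Il1rn rose by 1.12 on the log2 scale (SE 0.102, edgeR adjusted p = 0.000161), Il1b by 0.84 (SE 0.0773, adjusted p = 0.000173) and Il1rap by 0.88 (SE 0.159, adjusted p = 0.0041, all by edgeR's quasi-likelihood test with Benjamini-Hochberg adjustment). These are 3 of 6 members tested, where 22.4% of all genes tested in the class were called, 12% higher and 10.4% lower. The members' median log2 difference was 0.86, and that of all genes −0.02. With cko replicates 1 and 3 added together the values were 1.08 for Il1rn (adjusted p = 0.000721), 0.81 for Il1b (0.000674) and 0.85 for Il1rap (0.0193).

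The other members of this class did not pass. Il1a measured 119.7, 49.9 and 69.1 CPM in ctr and 135, 234 and 125 CPM in cko, so every cko sample was above every ctr sample, with wide spread in both groups (log2 difference 1.12, SE 0.41, edgeR adjusted p = 0.112). Without ctr replicate 1 it passed (1.54, adjusted p = 0.0211). Il1r2 measured 198, 103 and 140.0 CPM in ctr and 293, 198 and 204 CPM in cko (0.74, SE 0.275, edgeR adjusted p = 0.0983), and passed without ctr replicate 1 (1.02, adjusted p = 0.0222). Groups did not overlap in 41.7% of all genes of this class. Il18, processed by the same caspase as IL-1β, differed by 0.15 (SE 0.119, edgeR adjusted p = 0.4).

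The share of cells with transcript moved as well. After each cell was thinned to 2000 UMIs, 77.6 ± 4.43% of ctr and 93.2 ± 0.811% of cko monocytes and macrophages had an Il1b UMI (83.7% and 95.4% before thinning). For Il1rn the shares were 43.7 ± 4.09% and 71.1 ± 2.49% (61.6% and 84.2% before thinning). NK cells gave 4.83% and 5.48% for Il1b at the same thinned depth. With 3 samples against 3 the exact two-sided permutation test cannot go below 0.1, which both genes reached (adjusted p = 0.533 over 48 comparisons). Thinning left out 511 ctr and 276 cko cells of this class with under 2000 UMIs.

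The makeup of the class moved with the genotype. Macrophage markers summed to 23079 to 23992 CPM in ctr and 15222 to 17611 CPM in cko, with 7 of 12 lower and 1 higher in every cko sample. Monocyte markers summed to 4285 to 6193 CPM in ctr and 6124 to 8084 CPM in cko, and 10 stress-response genes to 14169 to 15393 CPM in ctr and 8639 to 10726 CPM in cko. The class was also a smaller share of kept cells in cko (34.8 ± 10.2% against 21.3 ± 6.65%). Neutrophil markers, summed over the class, were at 196 to 781 CPM in ctr and 498 to 679 CPM in cko and overlapped. The part of these shifts in the result was not tested, and values are given for 2 subsets chosen after seeing the data: C1q-positive cells, with a UMI of each of C1qa, C1qb and C1qc, the complement genes of mature macrophages, and C1q-negative cells, with none. Cells with a UMI of 1 or 2 of the 3 genes are in neither.

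Among C1q-positive cells Il1b measured 4058, 4514 and 4218 CPM in ctr and 8863, 8638 and 7673 CPM in cko, a log2 difference of 1.07 (SE 0.0901), which passed. In cells with no C1q UMI it measured 7268, 5773 and 5433 CPM in ctr and 8521, 7725 and 8511 CPM in cko (0.45, SE 0.121, edgeR adjusted p = 0.0596). The C1q-positive cells of ctr stood lowest of these 4 sets. Il1rn passed in both subsets, with 1.34 in C1q-positive cells and 0.65 in C1q-negative cells (adjusted p = 0.0407). Il1rap passed in C1q-positive cells (1.25, adjusted p = 0.0097) and was at 0.19 in C1q-negative cells (adjusted p = 0.699). Il1r2, which did not pass in the whole class, passed in C1q-positive cells (155, 88.6 and 119.7 CPM in ctr against 300.2, 270.4 and 208 CPM in cko; 1.19, adjusted p = 0.0108). The difference in effect between the subsets was not tested.

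**Figure D2:**
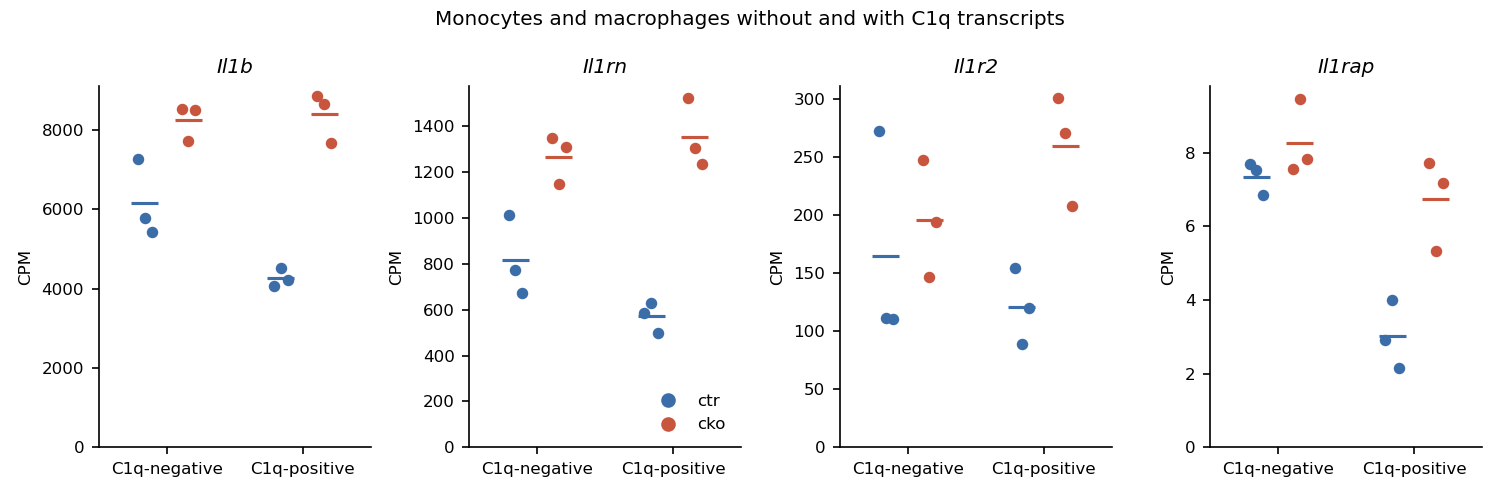
Il1b, Il1rn, Il1r2 and Il1rap (CPM, linear axis) in C1q-positive and C1q-negative monocytes and macrophages of each sample, with the mean of 3 samples per group. Ctr and cko are furthest apart in C1q-positive cells, where Il1b runs from 4058 to 4514 CPM in ctr and from 7673 to 8863 CPM in cko.

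cDC showed the same pair of genes. Il1b measured 1480.0, 1769 and 1950.4 CPM in ctr and 4804, 3477 and 3969 CPM in cko, and Il1rn 24.0, 72.9 and 20.4 CPM in ctr and 369, 244 and 424 CPM in cko. Neither gene overlapped between the groups. Il1b rose by 1.30 on the log2 scale (SE 0.172, edgeR adjusted p = 0.00407) and Il1rn by 3.19 (SE 0.593, edgeR adjusted p = 0.0469). They are 2 of 5 members tested, where 6.07% of all genes were called, 3.94% higher and 2.13% lower. The members' median was 1.30, and that of all genes 0.00. With cko replicates 1 and 3 added together Il1b kept its call (1.23, adjusted p = 0.0206) and Il1rn did not (3.06, adjusted p = 0.162). The Il1rn value was positive in all 13 alternatives, at 1.96 to 4.02, and its call was lost in 11 of them.

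Il1r2 in cDC measured 403, 223 and 452 CPM in ctr and 1364, 544 and 1018 CPM in cko, with no overlap and a log2 difference of 1.53 that did not pass (SE 0.474, edgeR adjusted p = 0.148). Groups did not overlap in 27% of all genes of the class. Il1a (0.57, adjusted p = 0.754) and Il18 (−0.56, adjusted p = 0.484) differed by less than their spread. After thinning, 53.6 ± 5.73% of ctr and 80.0 ± 7.53% of cko cDC had an Il1b UMI (70.3% and 86.2% before), and 6.05 ± 3.02% and 30.1 ± 6.67% an Il1rn UMI (16.3% and 48.1% before).

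Transcripts of other cells moved with the cDC result. Macrophage markers in the cDC gate summed to 491 to 891 CPM in ctr and 1481 to 1650.2 CPM in cko, with 4 of 12 higher in every cko sample. Neutrophil markers summed to 8.30 to 18.4 CPM in ctr and 34.6 to 64.5 CPM in cko, with 2 of 12 at 0. The part of either list in the cDC result was not tested. In cDC without a UMI of the macrophage gene Lyz2, Il1rn was 17.8, 43.2 and 19.4 CPM in ctr and 167, 141 and 215 CPM in cko. In cDC with a Lyz2 UMI it was 29.5, 105 and 22.2 CPM in ctr and 585, 289.5 and 562 CPM in cko. These Lyz2-positive cells held 556 of 725, 339 of 412 and 538 of 675 Il1rn counts of the cko cDC. Maturity was described in the same way. cDC with at least 2 of Ccr7, Fscn1 and Ccl22, the genes of migratory dendritic cells, held 366 ± 252 CPM of Il1rn against 88.5 ± 91.1 CPM in cDC without them (higher in 6 of 6 samples), and less Il18 (1.34 ± 1.14 against 6.72 ± 2.27 CPM, lower in 6 of 6). Il1b (3291 ± 1889 against 2491 ± 1102 CPM) and Il1r2 (758 ± 540 against 513 ± 325 CPM) were each higher in the mature cells in 4 of 6 samples, with ctr replicates 1 and 3 the other way. In these mature cells Il1r2 measured 345, 238 and 265 CPM in ctr and 1482, 1117 and 1102 CPM in cko, and Il1b 1129, 2165 and 1505 CPM in ctr and 5062, 5186 and 4699 CPM in cko. In cDC without any of the 3 genes the genotype differences were 1.03 for Il1b (adjusted p = 0.122), 2.99 for Il1rn (0.236) and 0.96 for Il1r2 (0.652), and none passed.

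**Figure D3:**
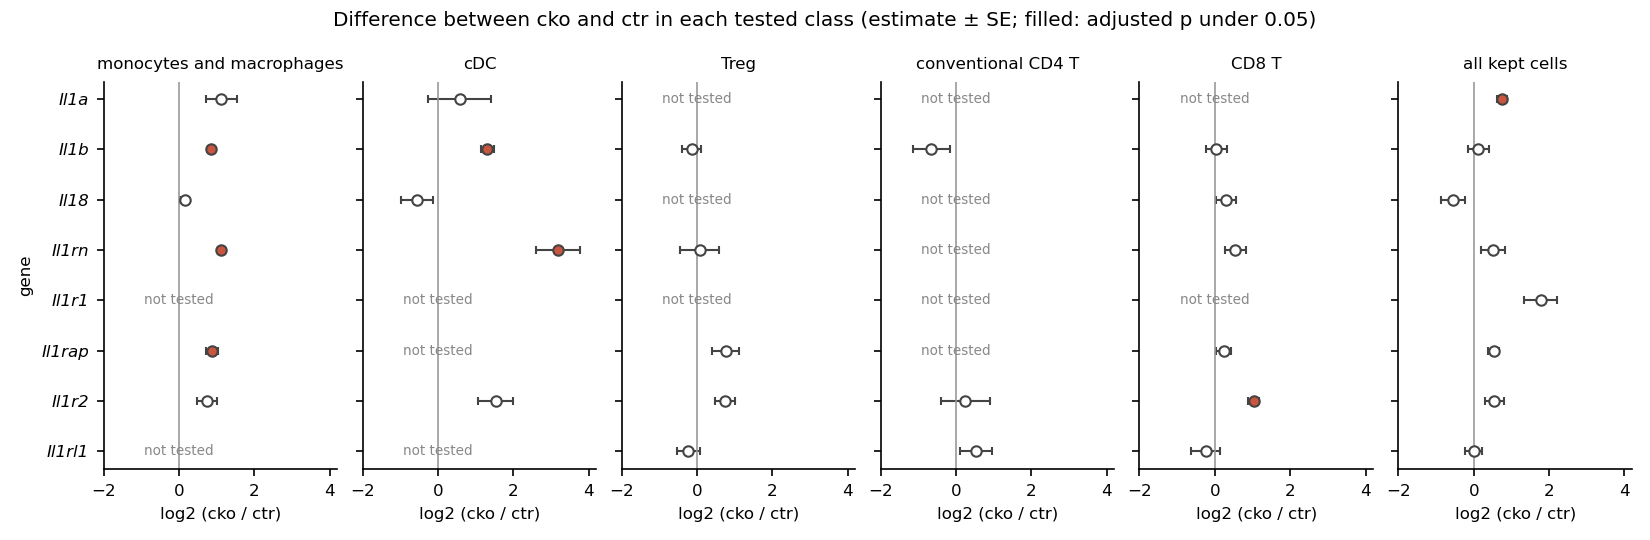
Log2 difference of cko from ctr (± SE, edgeR) for each member in 6 sets of cells; filled points passed an adjusted p of 0.05 and genes too low to fit are given as not tested. Il1b and Il1rn are filled in monocytes and macrophages and in cDC, Il1rap in monocytes and macrophages, Il1r2 in CD8 T cells and Il1a over all kept cells.

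Treg are the cells in which Ctcf was targeted, and 38.0% of the gated Treg had a Foxp3 UMI. In this gate 0 of 5 members passed by edgeR's quasi-likelihood test (1 had an unadjusted p under 0.05, and DESeq2 called 0). Of all genes 1.22% were called, 0.596% higher and 0.627% lower. Il1r2 measured 269, 256 and 259 CPM in ctr and 518, 253 and 561 CPM in cko. Cko replicates 1 and 3, the samples that share clonotypes, were at about the same high level, and cko replicate 2 lay just below the ctr samples. The log2 difference was 0.73 (SE 0.266, edgeR adjusted p = 0.292), and 1.02 without cko replicate 2 (adjusted p = 0.000262). In cells with a Foxp3 UMI the same samples gave 265, 284 and 253 CPM in ctr and 469, 159 and 213 CPM in cko, a difference of 0.00. Il1rl1 differed by −0.23 (SE 0.308, adjusted p = 0.81), and by 0.11 in cells with a Foxp3 UMI. Il1rap was 2.54, 2.41 and 3.67 CPM in ctr and 4.41, 5.65 and 4.70 CPM in cko, without overlap (0.76, SE 0.365, edgeR adjusted p = 0.415), where 19.9% of all genes did not overlap.

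Within Treg, Il1r2 was a gene of cells with Ccr8, the chemokine receptor of activated tumour Treg: 439 ± 211 CPM with a Ccr8 UMI against 131 ± 77.8 CPM without, higher in 6 of 6 samples. The Ccr8-positive cells measured 289, 284 and 277 CPM in ctr and 748, 376 and 661 CPM in cko. Il1rl1 was higher in Treg with Klrg1, a marker of differentiated Treg, in 5 of 6 samples (36.9 ± 15.5 against 19.8 ± 7.47 CPM). Those Klrg1-positive cells measured 56.9, 31.2 and 55.3 CPM in ctr and 33.4, 20.9 and 23.8 CPM in cko. The groups overlapped, and the cko values rest on 4, 7 and 7 counts from 23, 35 and 37 cells.

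In conventional CD4 T cells 0 of 3 members passed by edgeR's quasi-likelihood test (0 had an unadjusted p under 0.05, and DESeq2 called 0), where 0.0351% of all genes were called, 0.0234% higher and 0.0117% lower. Il1r2 measured 122, 494 and 185 CPM in ctr and 392, 138 and 373 CPM in cko, so the groups overlapped fully (0.25, SE 0.656, edgeR adjusted p = 0.988). The gene also differed by a marker here, 1 that is on the list of Treg markers as well, and the split was not tested. Cells with Tnfrsf4, the costimulatory receptor OX40, held 396 ± 211 CPM against 19.8 ± 33.2 CPM in those without, higher in 6 of 6 samples.

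In CD8 T cells Il1r2 measured 25.6, 23.8 and 18.5 CPM in ctr and 42.5, 51.1 and 48.7 CPM in cko (22.6 ± 3.69 against 47.4 ± 4.42 CPM). All cko samples lay above all ctr samples, and groups did not overlap in 25.6% of all genes of the class. It rose by 1.03 on the log2 scale (SE 0.135, edgeR adjusted p = 0.00924), 1 of 6 members tested, where 2.7% of all genes were called, 1.36% higher and 1.35% lower. With cko replicates 1 and 3 added together the value was 1.06 (adjusted p = 0.0376), and without cko replicate 3 it was 1.03 and did not pass (adjusted p = 0.0671). The share of CD8 T cells with an Il1r2 UMI at 2000 UMIs was 2.62 ± 0.166% in ctr and 4.75 ± 0.404% in cko (6.49% and 11.6% before thinning), against 0.253% and 0.702% in NK cells. The transcript lay mainly in cells with Havcr2, the exhaustion marker TIM-3 (50.1 ± 13.9 against 15.7 ± 7.81 CPM, higher in 6 of 6 samples). Within Havcr2-positive cells it measured 42.4, 41.5 and 30.3 CPM in ctr and 60.1, 64.7 and 61.6 CPM in cko, and within Havcr2-negative cells 10.98, 8.02 and 10.1 CPM in ctr and 14.1, 25.3 and 25.6 CPM in cko. Neither subset overlapped between the groups. The share of all genes without overlap is not given for these subsets, so this is a description only. Cells with a Havcr2 UMI were 584 of 1524, 309 of 809 and 433 of 1316 CD8 T cells in ctr. In cko they were 1200 of 2315, 734 of 1421 and 1179 of 2176. The part of this shift in the whole-class difference was not tested. Monocyte-list transcripts in the CD8 gate, among them Ly6c2, summed to 1341 to 1831 CPM in ctr and 2143 to 2749 CPM in cko, macrophage markers to 58.4 to 105 CPM and 44.4 to 50.7 CPM, and stress genes to 5912 to 9065 CPM and 2852 to 4633 CPM; their part in the result was not tested. CD8 T cells with a Ly6c2 UMI held less Il1r2 than those without in 5 of 6 samples (30.1 ± 14.5 against 50.4 ± 21.9 CPM).

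**Figure D4:**
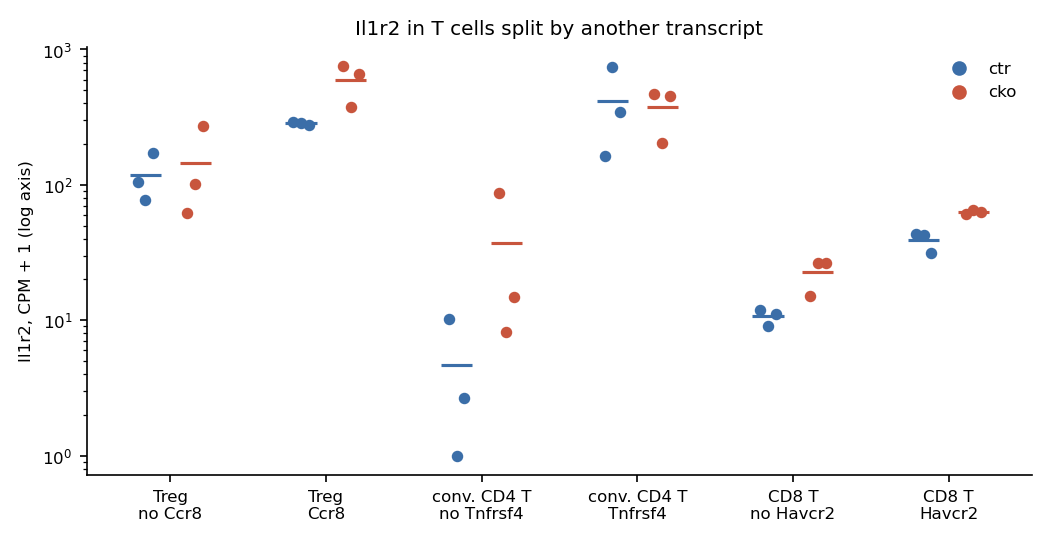
Il1r2 (CPM + 1, log axis) in T cell subsets split by 1 marker each; points are samples and lines are means of 3 samples per group. Cells with Ccr8 (Treg), Tnfrsf4 (conventional CD4) or Havcr2 (CD8) lie above those without, and within the CD8 subsets cko lies above ctr.

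Neutrophils and γδ T cells were too few in ctr for a test of genotype. In neutrophils Il1b was 12312, 8212 and 22929.6 CPM in ctr and 18389, 11747 and 20438 CPM in cko, and the ranges overlapped. Il1a was 836, 0 and 1171 CPM in ctr and 1986, 1541 and 1266 CPM in cko; the 0 comes from 4 cells and allows up to 379 CPM. Il1r2 overlapped as well, at 4654, 2401 and 5008 CPM in ctr and 3925, 2263 and 3689 CPM in cko. What differed plainly was the number of these cells, at 44, 4 and 14 in ctr and 82, 77 and 74 in cko for neutrophils, and 13, 2 and 16 in ctr and 116, 162 and 89 in cko for γδ T cells.

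Over all kept cells, where fewer cells of a type and less RNA per cell cannot be told apart, 1 of 8 members passed, and 5.88% of all genes were called, 2.4% higher and 3.48% lower. Il1a measured 34.2, 25.9 and 27.5 CPM in ctr and 50.9, 56.7 and 44.1 CPM in cko and rose by 0.75 on the log2 scale (SE 0.136, edgeR adjusted p = 0.0342), a call that was lost in 7 of 11 alternatives, among them cko replicates 1 and 3 added together (0.78, adjusted p = 0.117) and the replicate block (adjusted p = 0.0953). Il1r1 measured 1.13, 0.362 and 1.01 CPM in ctr and 2.58, 4.13 and 2.15 CPM in cko, with no overlap (1.78, SE 0.442, edgeR adjusted p = 0.0646). Groups did not overlap in 36% of all genes. Il1b measured 1598, 2794 and 2019.7 CPM in ctr and 2829, 1695 and 2693 CPM in cko, and the groups overlapped (0.12, edgeR adjusted p = 0.808).

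The cells that held each transcript shifted accordingly. Monocytes and macrophages held 80.0% of Il1b counts in ctr and 73.4% in cko (mean of 3 samples), 87.1% and 74.3% of Il1rn, and 86.2% and 64.8% of Il1a. Neutrophils held 3.15% of Il1a in ctr and 18.3% in cko, and 1.36% and 6.71% of Il1rn. γδ T cells held 4.40% of Il1r1 in ctr and 50.1% in cko. CD8 T cells held 3.23% of Il1r2 in ctr and 8.62% in cko, and Treg 40.1% of Il1rl1 in ctr and 20.6% in cko. T cells that the gates left unresolved held 20.2% of Il1rl1 in ctr and 27.0% in cko. For these shares the exact two-sided permutation p cannot go below 0.1 with 3 against 3 samples. All but 1 reached that value (adjusted p = 0.338 over 88 comparisons). The exception was Il1b in monocytes and macrophages, whose groups overlapped (permutation p = 0.2, adjusted p = 0.476).

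**Figure D5:**
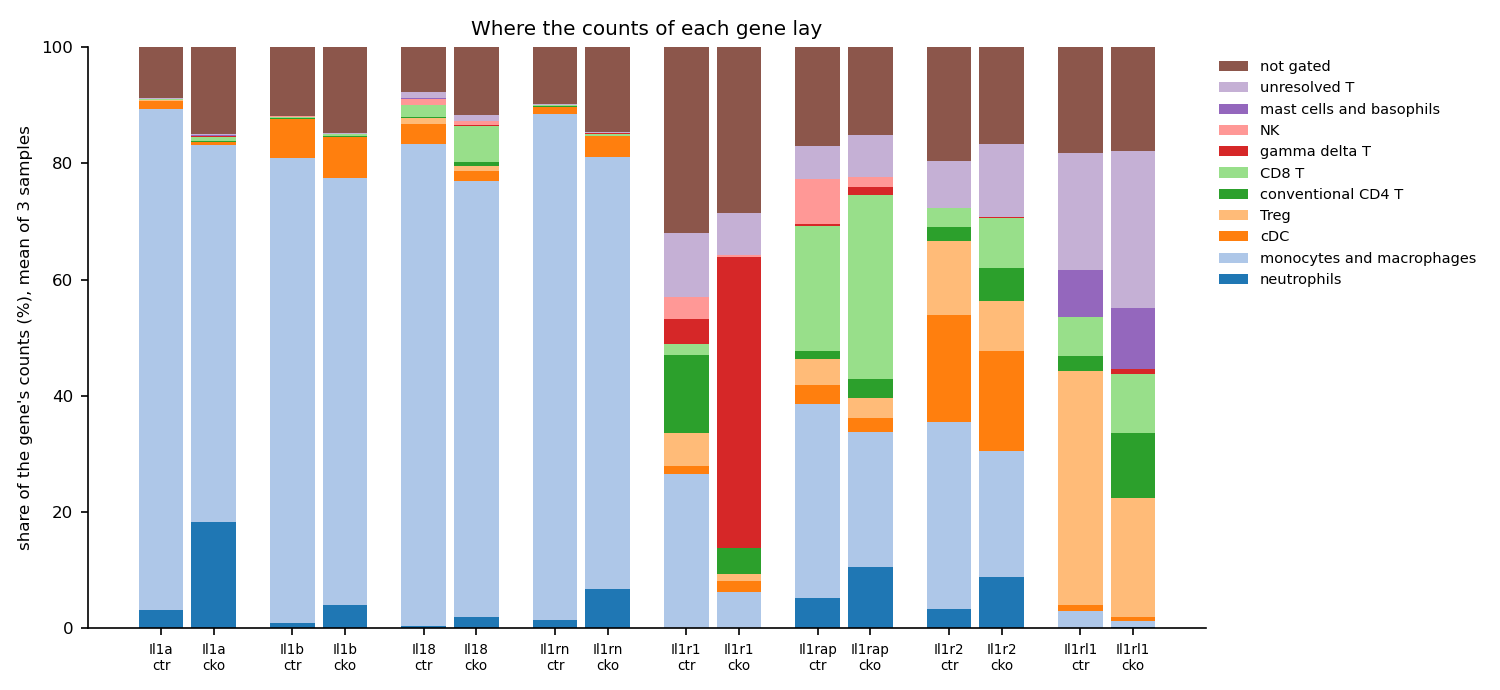
Share of each member's counts (percent, mean of 3 samples) held by each cell class in ctr and cko, as stacked bars. Monocytes and macrophages hold most of Il1a, Il1b, Il1rn and Il18 in both groups, and the γδ T share of Il1r1 is 4.40% in ctr and 50.1% in cko.

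A list of 55 further genes of the pathway, chosen by role, was counted in the same fits. In monocytes and macrophages 10 of 45 tested were higher and 3 lower in cko, 28.9% of those tested against 22.4% of all genes (12% higher, 10.4% lower), with a median log2 difference of 0.15 against −0.02. Products of IL-1 signalling gave 3 of 8 higher: Il6, the acute-phase cytokine, from 5.72 ± 2.47 to 21.7 ± 0.128 CPM (2.04, edgeR adjusted p = 0.000904), the prostaglandin synthase Ptgs2 from 566 ± 112 to 1153 ± 91.6 CPM (1.10, adjusted p = 0.00114) and Ptges (1.63, adjusted p = 0.0482). Of 11 inflammasome genes 3 were higher and 1 lower. Nlrp3, the sensor, went from 143 ± 27.7 to 262 ± 25.9 CPM (0.95, edgeR adjusted p = 0.0018) and Mefv, the pyrin gene, by 0.80 (adjusted p = 0.000606), while P2rx7, the ATP-gated channel that triggers NLRP3, fell by 0.73 (adjusted p = 0.00176). The protease Casp1 (58.5 and 63.5 CPM), the adaptor Pycard (281 and 275 CPM), the pore former Gsdmd (145 and 131 CPM) and the IL-18 binding protein Il18bp (112 and 106 CPM) had similar means in ctr and cko. Of 9 NF-kB genes 3 were higher, among them Nfkb1 (99.1 ± 5.88 to 177 ± 6.62 CPM, 0.92, edgeR adjusted p = 0.000202), and the kinase Map3k8 fell by 0.88 (adjusted p = 0.00632). In C1q-negative cells alone Il6, Ptgs2, Nlrp3, Map3k8, Mefv and P2rx7 did not pass, and Ptges was too low to test there and kept its call in 6 of 13 alternatives.

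In cDC 9 of 39 pathway genes tested were higher and 0 lower, 23.1% of those tested against 6.07% of all genes (3.94% higher, 2.13% lower), with a median of 0.38 against 0.00. NF-kB genes made up 5 of them, of 9 tested. Rel, an NF-kB subunit of activated dendritic cells, went from 147 ± 20.8 to 331 ± 43.1 CPM (1.22, edgeR adjusted p = 0.000589), Ptgs2 rose by 1.66 (adjusted p = 0.000781) and Nlrp3 from 37.3 ± 7.30 to 79.7 ± 9.70 CPM (1.17, adjusted p = 0.0051). The signalling kinase Irak2 rose by 0.70 (adjusted p = 0.00947). Mefv (1.24), Relb (0.69), Nfkbiz (0.67) and Nfkb2 (0.66) passed at adjusted p of 0.0293 to 0.0499 and lost their calls with cko replicates 1 and 3 added together. None of these 8 genes passed in cDC without Ccr7, Fscn1 or Ccl22. In Treg, conventional CD4 and CD8 T cells edgeR called 0 of 36, 0 of 35 and 0 of 36 pathway genes (5, 4 and 5 had an unadjusted p under 0.05, and DESeq2 called 0, 0 and 1).

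The pathway list was also counted between classes. Neutrophils differed from monocytes and macrophages in 21 genes upward and 8 downward of 43 tested (67.4%, against 43.2% of all genes): Csf3, the neutrophil growth factor, by 4.80, Cxcl2, the neutrophil chemoattractant, by 4.44, and Il6 and P2rx7 by −3.76 each. The list also holds Cxcl3, which is among the 12 neutrophil markers of the gate, so any difference of Cxcl3 here is set in part by the gate. Il1f9, which encodes IL-36γ, another agonist of the family, measured 706 ± 158 CPM in ctr and 911 ± 210.0 CPM in cko neutrophils, against 0.217 and 0.367 CPM in monocytes and macrophages. The ctr samples held 44, 4 and 14 neutrophils, so this ctr mean and SD include samples under 20 cells and are uncertain. γδ T cells, the class highest in Il1r1, exceeded other T cells in 10 pathway genes and lay below them in 4 of 37 tested (37.8%, against 20.1% of all genes). The higher genes included Irak3, the inhibitory IL-1 receptor-associated kinase, by 3.77, the NF-kB inhibitor Nfkbia by 1.76 and the IL-18 receptor Il18r1 by 1.01. Treg exceeded conventional CD4 T cells in 10 and lay below them in 6 of 35 (45.7%, against 21.9% of all genes), with 7 of 9 NF-kB genes higher, among them Rel (0.57) and Nfkb2 (0.49).

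The genes whose levels ran most like each member, by Pearson's r of log2(CPM + 1) over 37 sums of a sample and class and 9444 genes, differed between ligands and receptors. Il1a was followed most closely by Clec4d (r = 0.978), Fpr2 (0.966) and C5ar1 (0.963), Il1b by Tgm2 (0.988), Clec5a (0.988) and Syk (0.987), and Il1rn by Cd14 (0.988), Plaur (0.982) and Bst1 (0.977), mostly receptors of myeloid cells. Il18 ran most like Pilra (0.950). Genes near Il1r1 were the γδ segment Tcrg-V4 (0.929) and Kcnk1 (0.918), and the nearest for Il1rl1 Tox2 (0.892), Cd4 (0.879) and Izumo1r (0.878). Il1rap ran with the neutrophil genes G0s2 (0.950) and Csta3 (0.946). Il1r2 had the weakest neighbours, Rnf24 (0.883), Ifitm2 (0.864) and Marcksl1 (0.853). Cd14, G0s2 and Cd4 are among the markers that set the gates. The sums share libraries and class differences, so these values are descriptions.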

How the data were processed

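The authors made the deposited UMI counts, raw and per gene and cell, from 10x 5′ libraries with Cell Ranger 7.0.0 on mm10 (GRCm38), per the submitters' processing notes. Barcodes under 300 genes or 500 UMIs, or over 10% mitochondrial, were dropped, and the cells with the highest Scrublet scores (0.8% per 1000 barcodes) were removed as doublets, 2203 in all; Scrublet's own threshold marked 0.426%. The members and lists were chosen with earlier results of these data known, and the gate thresholds after seeing the data. Gates counted markers with a UMI per cell. T cells had at least 4 of 8, and monocytes and macrophages at least 4 of 14 and under 2 of 9 cDC markers. The cDC had at least 2 of these 9 and could carry up to 4 of those 14. Neutrophils had at least 5 of 12, and γδ T cells at least 4 of 8. Treg were T cells with no CD8 marker and with a Foxp3 UMI or at least 2 of Foxp3, Ikzf2, Lrrc32 and Il2ra. Conventional CD4 T cells had Cd4 or Cd40lg and none of these 4. Counts were summed per sample and class and tested with edgeR 4.0.16 (quasi-likelihood, TMM, filterByExpr, robust) in R 4.3.3, with Benjamini-Hochberg adjustment over all genes tested and a threshold of 0.05. Contrasts between classes kept the sample as a block. Genotype was tested in all kept cells and, of the 7 classes described, in those with no sample under 20 cells; NK cells, unresolved T cells and cells outside the gates were described only. The fit was tested on simulated data. Alternatives were DESeq2 1.42.0, no filter, a replicate block, leaving out each sample, cko replicates 1 and 3 added together, classes from clusters (scanpy 1.11.5) and high Scrublet scores kept. Splits by C1q, by a Foxp3 UMI and by Ccr7, Fscn1 or Ccl22 were added after seeing the data. Intervals and floors cover counting error only. All 8 members are named; pathway genes are named where they passed, at most 8 per comparison by size, and up to 3 genes as most like each member. Some results are not reported here.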

Additional observations from a re-analysis of the deposited data

Results flagged for a closer look

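Some members had a higher mean in cko in cells outside the tested classes; none of these was tested. In cells that no gate took, Il1a measured 57.7 CPM in cko and 20.1 CPM in ctr (means of 3 samples), and Il1r1 6.32 and 2.12 CPM. These cells had median UMI counts of 1268.5 to 2323. In NK cells Il1rn measured 2.58 CPM in cko and 1.02 CPM in ctr. In T cells that the gates could not assign to Treg, conventional CD4 or CD8, Il1rap measured 5.85 CPM in cko and 4.17 CPM in ctr. Il18 went the other way in these T cells, at 1.09 CPM in cko and 2.29 CPM in ctr.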

How the results depend on the processing

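The numbers of genes called moved as follows. Monocytes and macrophages had 2537 calls, 1278 to 2929 when 1 sample was left out, 1506 with cko replicates 1 and 3 added together and 421 in C1q-negative cells. cDC had 553, 163 to 1168 without 1 sample, 257 with those replicates together and 95 without Ccr7, Fscn1 or Ccl22. Treg had 121, 247 by DESeq2, 258 with no filter, 7 to 294 without 1 sample, 1 with the replicates together, 67 from clusters and 38 in cells with a Foxp3 UMI. Conventional CD4 T cells had 3, 52 by DESeq2, 183 with no filter, 19 with the replicate block, 0 to 89 without 1 sample, 1 with the replicates together and 0 from clusters. CD8 T cells had 313, 635 by DESeq2, 9 to 811 without 1 sample, 70 with the replicates together and 603 from clusters. All kept cells had 843, 2288 by DESeq2, 0 with the replicate block, 0 to 764 without 1 sample and 6 with the replicates together. Where edgeR called 0, 453 to 3144 genes had an unadjusted p under 0.05. Treg against conventional CD4 T cells had 1990, and 1185 by DESeq2; γδ against other T cells had 2247, and 1494 to 2476 without 1 sample. The replicate numbers did not pair the samples (correlations of −0.00805, −0.0598 and 0.0235 in monocytes and macrophages); the replicate block gave 2200 calls there, 574 in cDC, 92 in Treg and 282 in CD8 T cells. With it Il1r2 passed in monocytes and macrophages (0.76, edgeR adjusted p = 0.00239) and cDC (1.46, adjusted p = 0.000405). Leaving out cko replicate 2 gave the highest counts in cDC, Treg, conventional CD4 and CD8 T cells, and leaving out cko replicate 3 the lowest in these 4 classes. Members' calls also changed. By DESeq2 Il1r2 passed in cDC (adjusted p = 0.0484), and Il1r1 (0.00159) and Il1rap (0.033) in all kept cells. Il1rn in cDC lost its call without any one sample other than ctr replicate 2 (edgeR adjusted p = 0.0764 to 0.184), and Il1a in all kept cells without any one other than ctr replicate 1 (0.0573 to 0.149). Il1b in Treg against conventional CD4 T cells lost it without ctr replicate 3, cko replicate 1 or cko replicate 3 (0.0975 to 0.106). Without cko replicate 2, Il1r2 passed in all kept cells (0.78, edgeR adjusted p = 0.0436) and Il1b in γδ T cells (0.69, 0.0457). No cause was tested.

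Members whose value had not passed changed sign in some alternatives; of these values only the −0.84 below passed (edgeR adjusted p = 0.00178). From clusters the log2 differences were −0.12 for Il1a in cDC, −0.00205 for Il1r2 and −0.12 for Il1rn in Treg, −0.84 for Il1r2 in Treg against conventional CD4 T cells and 0.0433 for Il1rap in γδ T cells. In cell subsets they were −0.22 for Il18 in C1q-positive cells, 0.15 for Il18 in cDC without Ccr7, Fscn1 or Ccl22 and 0.11 for Il1rl1 in Treg with a Foxp3 UMI. With cko replicates 1 and 3 together they were −0.0074 for Il1rn in Treg and 0.0699 for Il1rl1 in all kept cells, where the replicate block gave 0.00361. Il1b in CD8 T cells was −0.34 with high Scrublet scores kept, and Il18 in neutrophils −0.0406 with no filter. Leaving out 1 sample gave −0.58 to 1.25 for Il1a in cDC. In Treg it gave −0.50 to 0.0918 for Il1rl1, −0.29 to 0.42 for Il1rn and −0.39 to 0.018 for Il1b. In conventional CD4 T cells it gave −0.09004 to 0.95 for Il1r2 and −0.98 to 0.19 for Il1b, and in CD8 T cells −0.54 to 0.15 for Il1rl1 and −0.15 to 0.47 for Il1b. In all kept cells it gave −0.18 to 0.16 for Il1rl1 and −0.0604 to 0.39 for Il1b, in γδ T cells −7.58 to 0.0925 for Il1rl1 and −0.62 to 0.28 for Il1rap, and in neutrophils −0.0597 to 0.23 for Il18. Genotype could not be tested in neutrophils and γδ T cells. Members under a few CPM are limited by depth.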

Other observations

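The 30 mast cells and basophils of the 6 samples, too few for a test, held the highest Il1rl1 level of any class. Their 128 counts gave 937, 879 and 1045 CPM in ctr and 434, 481 and 1903 CPM in cko, against 13.2 to 32.1 CPM in Treg. The groups overlapped.

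In T cells that the gates left unresolved, Il1r2 repeated the sample pattern of Treg, with 196, 216 and 186 CPM in ctr and 512, 124 and 512 CPM in cko. Cko replicates 1 and 3 were again high and cko replicate 2 was below the ctr samples. Conventional CD4 T cells showed the same split among the cko samples, at 392, 138 and 373 CPM.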
